A study of Mus musculus with 10 samples.

Results

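The interaction of genotype and stage in the mouse lens was examined, that is, whether the difference between Klf4-conditional null (Klf4CN) and wild-type (WT) lenses was the same in the embryo and in the young adult. For each gene the Klf4CN minus WT difference in log2 signal at embryonic day 16.5 (E16.5) was subtracted from that at postnatal day 56 (PN56). A positive interaction therefore means that the Klf4CN lens stood higher relative to WT at PN56 than at E16.5, and a negative one that it stood lower. All 10 arrays of the series entered, and 13444 of 18193 genes were bright enough to be tested. Each array held RNA of whole dissected lenses. The E16.5 arrays were 3 WT and 3 Klf4CN, each from the lenses of 5 pooled embryos. The PN56 arrays were 2 WT and 2 Klf4CN, each from the lenses of 3 pooled mice. Neither the Cre line that deletes Klf4 nor the strain or sex of the mice is given in the labels. An array is named below by its group and replicate number, as in PN56 WT 1. With pooled whole lenses, fewer cells of a type and less RNA per cell cannot be told apart.

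Klf4 is a zinc finger transcription factor of surface epithelia that binds CACCC-type and GC-rich promoter letters, and it can raise or lower the genes it binds. The lens is a closed sac of one cell lineage. A front layer of epithelial cells divides and keeps adding fibre cells, which leave the cell cycle, elongate, fill with crystallins and then degrade their nuclei and mitochondria. An adult lens is therefore mostly mature fibre mass, whereas an E16.5 lens is rich in young fibres.

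The labelled tissue showed its markers on every array. The mean log2 signal of 16 lens fibre genes lay between 13.45 and 13.69 on the 10 arrays, and that of 14 crystallins between 14.49 and 16.43. Within a group, arrays correlated at 0.951 to 0.981 across the tested genes. Median signals were 63.0 to 76.9 at E16.5 and 91.0 to 108.6 at PN56. The bacterial dap spike, added to RNA before labelling, had a signal of 3655 ± 518 on E16.5 WT and 3576 ± 381 on E16.5 Klf4CN arrays (SD, n = 3 each) but only 6.5 to 14.5 at PN56, so stage and preparation cannot be told apart. The cre hybridisation spike gave 38343, 33182, 78237 and 52249.8 as means of E16.5 WT, E16.5 Klf4CN, PN56 WT and PN56 Klf4CN, an interaction of -0.37 on the log2 scale, and its part in the balance of signs below was not tested. Xist, the RNA of the inactive X chromosome in females, was called at 1.80 ± 0.40 (SE; limma adjusted p = 0.026), from 3248, 5378 and 7494 on the E16.5 WT and 3348, 5709.9 and 4769 on the E16.5 Klf4CN arrays and 1275 and 1383 on the PN56 WT and 4064 and 4227 on the PN56 Klf4CN arrays. Eif2s3y, a gene of the Y chromosome, was at -1.58 ± 1.75 (SE; limma adjusted p = 0.66), not called, from 492, 768 and 550.0 on the E16.5 WT and 1552, 13.5 and 1199.9 on the E16.5 Klf4CN arrays and 307 and 518 on the PN56 WT and 40 and 119.8 on the PN56 Klf4CN arrays. Both were chosen after their values were seen, and the part of the sex of the pooled mice in the results was not tested.

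The targeted gene was checked first. Klf4 signals were 774, 1015 and 428 on the E16.5 WT arrays, 1360.3, 805 and 1072 on the E16.5 Klf4CN arrays, 156 and 214 on the PN56 WT arrays and 732 and 702 on the PN56 Klf4CN arrays. They overlapped between genotypes at E16.5, and at PN56 both Klf4CN arrays were above both WT arrays, opposite to the label. Which exons the deletion removes is not in the labels, and a probe set outside them checks nothing. The interaction was 1.29 ± 0.44 (SE; limma adjusted p = 0.12), with a 95% interval from 0.34 to 2.25, and was not called; a second probe set gave 0.39. Without E16.5 WT 3 it was called (1.63, limma adjusted p = 0.031). Klf4CN is used below as the name on the label.

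Between the stages, 620 genes had a genotype difference that changed at a limma Benjamini-Hochberg adjusted p under 0.05, which is 4.61% of the 13444 tested. Of these, 351 were positive (2.61% of tested) and 269 negative (2.00%). The median interaction of all genes tested was -0.07. For all 620, every pairing of array values across the 4 groups gave a difference of differences of one sign, which held for 21.6% of tested genes. Most of the calls were differences seen at PN56: in 533 of 620 the genotype difference was small at E16.5 and at least 0.3 at PN56, compared with 41.7% of tested genes. A further 63 had differences of opposite sign at the 2 stages, 20 had the same sign at both, all larger at PN56, and 4 differed mainly at E16.5. The PN56 difference was the larger one in 98.2% of called and 74.7% of tested genes. PN56 groups had 2 arrays each and E16.5 groups 3. In a fit that counts noisier arrays less, PN56 arrays had weights of 0.62 and E16.5 arrays 1.16 to 1.75, and 320 genes were called. The part of array noise in the excess of PN56 differences was not tested. Sizes of called interactions had a median of 1.05, and 76 were at least 2. The count depended on which array was left out: it was 316, 368 or 436 without E16.5 WT 1, 2 or 3, 321, 398 or 273 without E16.5 Klf4CN 1, 2 or 3, 396 or 702 without PN56 WT 1 or 2, and 939 or 384 without PN56 Klf4CN 1 or 2. Centring each array on its median moved the median of all genes by over 0.1, from -0.07 to 0.10, and the split to 395 positive and 81 negative. In all, 192 of the 620 were called with every single array left out, and 66 (41 positive, 25 negative) in all 23 alternative fits.

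**Figure D1:**
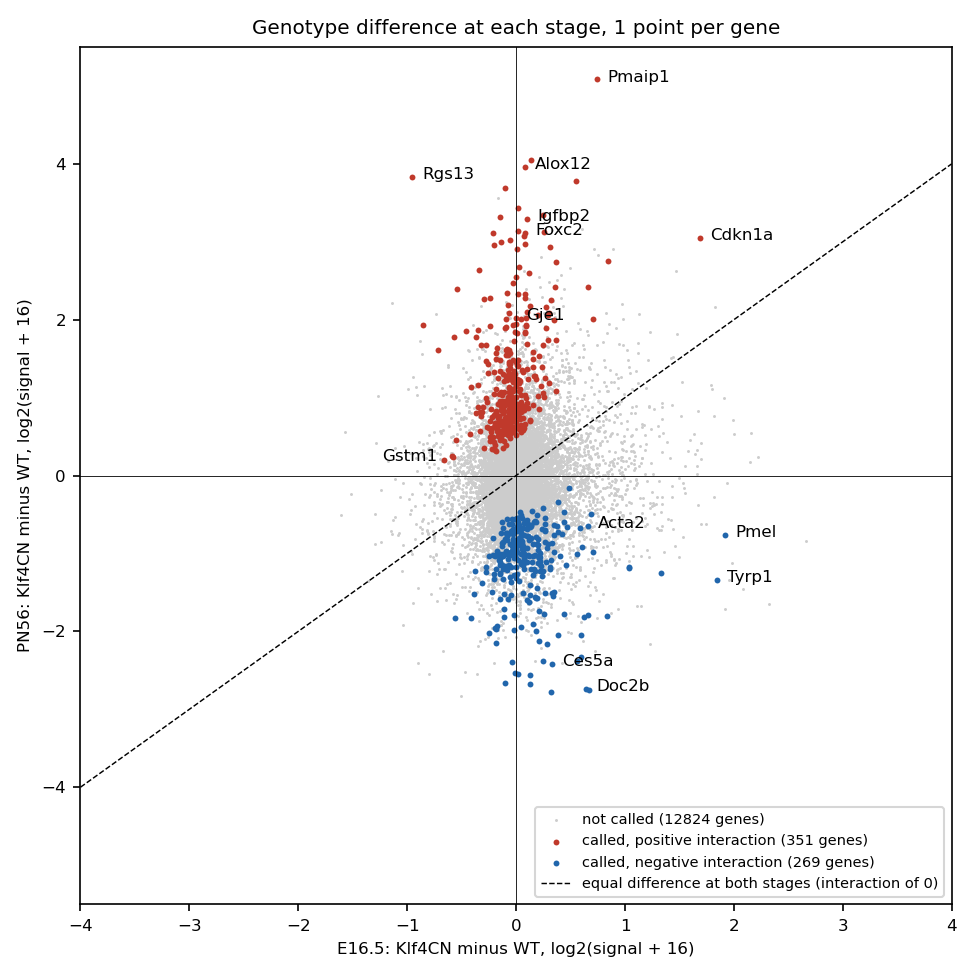
Klf4CN minus WT difference in log2(signal + 16) at E16.5 (horizontal) and at PN56 (vertical), 1 point per tested gene, with the 351 positive calls in red, the 269 negative calls in blue and genes not called in grey. Distance above or below the dashed line is the interaction, and most coloured points lie near 0 on the horizontal axis.

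Alox12 and Alox15, genes of lipid mediator synthesis, and Ptgfr, a receptor gene, had some of the largest positive values. Alox12, which encodes the platelet-type 12-lipoxygenase that oxidises arachidonic acid, had signals of 838, 1001 and 859.5 on the E16.5 WT arrays, 1033, 746 and 1112 on the E16.5 Klf4CN arrays, 212 and 138 on the PN56 WT arrays and 3349 and 2532 on the PN56 Klf4CN arrays. The genotypes overlapped at E16.5, while both PN56 WT arrays were the lowest of all 10 and both PN56 Klf4CN arrays the highest. The interaction was 3.88 ± 0.30 (SE; limma adjusted p = 1.124e-04), and a second probe set gave 1.24, not called (limma adjusted p = 0.31). Alox15, the 12/15-lipoxygenase gene, gave 3.80 ± 0.53 (SE; limma adjusted p = 0.0032), from signals of 13.7 and 22.4 on the PN56 WT and 420.1 and 421 on the PN56 Klf4CN arrays, against 93.9 to 238.8 over the 6 E16.5 arrays. In the RefSeq gene order 1 coding gene, Alox12e, lies between Alox12 and Alox15, and Alox12e itself was at -1.07 and not called. Ptgfr, the receptor of prostaglandin F2 alpha, gave 3.23 ± 0.46 (SE; limma adjusted p = 0.0036), with its 4 other probe sets between 1.43 and 2.69. All 3 calls were made in all 23 alternative fits. Of 18 tested lipoxygenase and prostaglandin genes 3 were called positive and 0 negative (16.7%), and the list's median was -0.07, that of all genes. Only 7 of the 18 had a positive sign, and members ran from -2.17 to 3.88. Alox5 missed the threshold at 1.85 ± 0.49 (SE; limma adjusted p = 0.053).

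A pair of promoter windows is shown because Klf4 binds CACCC-type letters and because Cdkn1a, described next, holds paired letters of the kind p53 binds. They are the 250 bases before the RefSeq start (GRCm38.p6), 5′ to 3′ on the gene's strand. Alox12 is at chr11:70255371-70255620 (minus strand) and the first of 2 Cdkn1a starts at chr17:29090729-29090978 (plus strand). Capitals mark CACNCCC or GGGNGTG in Alox12, and GGGTG and a stretch with ACATGT at both ends and 4 bases between in Cdkn1a.
Alox12: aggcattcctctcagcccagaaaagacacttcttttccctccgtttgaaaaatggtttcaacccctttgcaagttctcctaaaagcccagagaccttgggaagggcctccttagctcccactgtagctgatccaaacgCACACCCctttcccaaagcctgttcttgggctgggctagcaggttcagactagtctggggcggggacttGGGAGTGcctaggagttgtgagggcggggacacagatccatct
Cdkn1a: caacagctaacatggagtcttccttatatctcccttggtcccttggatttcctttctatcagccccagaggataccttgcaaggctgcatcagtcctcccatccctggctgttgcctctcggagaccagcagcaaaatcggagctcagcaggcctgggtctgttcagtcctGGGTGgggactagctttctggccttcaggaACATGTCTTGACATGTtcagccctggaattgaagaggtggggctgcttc
CACCC or GGGTG, either strand, was present in 58.1% of 13848 promoter windows of tested genes, 57.2% of 369 windows of genes called positive and 61.9% of 265 of genes called negative. CACNCCC or GGGNGTG, of which many matches overlap the former, was present in 32.4%, 30.6% and 33.2%. ACATGT, any 4 bases and ACATGT again, a pattern chosen after the Cdkn1a sequence was seen, occurred in 1 of the 13848 windows, that of Cdkn1a. The second Cdkn1a window held none of these letters.

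The p53 targets and genes of cell cycle exit gave 4 positive and 0 negative calls among 36 tested members (11.1%), with a median of 0.13. Cdkn1a, the gene of the cell cycle brake p21, had signals of 433, 416 and 284 on the E16.5 WT arrays, 1039.6, 1115 and 1613 on the E16.5 Klf4CN arrays, 187 and 194 on the PN56 WT arrays and 1816 and 1585 on the PN56 Klf4CN arrays. Genotypes did not overlap at either stage, and the gap was wider at PN56, where WT was the lowest group. The interaction was 1.36 ± 0.31 (SE; limma adjusted p = 0.029). A second probe set gave 0.62. The call was lost without any one array other than E16.5 WT 3 and E16.5 Klf4CN 3 (1.24 to 1.46, adjusted p from 0.051 to 0.076). Pmaip1, which encodes the pro-apoptotic BH3 protein Noxa, had signals of 64.8, 71.2 and 47.5 on the E16.5 WT arrays, 133, 68.7 and 149 on the E16.5 Klf4CN arrays, 3.3 and 2.9 on the PN56 WT arrays and 656 and 608 on the PN56 Klf4CN arrays. Its PN56 WT signals lay under the offset of 16 added before taking logs. The interaction of 4.34 ± 0.53 (SE; limma adjusted p = 0.0013) was 6.40 when 1 was added in place of 16 and 2.87 when 64 was, and it was called in all 23 alternative fits. Cdkn1b, encoding the inhibitor p27 that lens fibres use to stop dividing, gave 1.08 ± 0.23 (SE; limma adjusted p = 0.022), from 577 and 951 on the PN56 WT and 1458 and 1436 on the PN56 Klf4CN arrays, and Aen, a p53-induced nuclease gene, gave 0.91 ± 0.18 (SE; limma adjusted p = 0.017). The Cdkn1b call was lost without E16.5 Klf4CN 3 (1.05, limma adjusted p = 0.057) or PN56 Klf4CN 2 (1.09), and that of Aen without PN56 WT 1 (0.75). With probe sets averaged Cdkn1a was at 0.99, Cdkn1b at 0.80 and Aen at 0.75, none called (limma adjusted p = 0.34, 0.20 and 0.19). Phlda3, Perp and Btg2, other p53 targets, were at 0.46, 0.65 and 0.66, and Ccng1 and Mdm2 at 0.00 and -0.19, none called. Members of the list ran from -1.47 to 4.34, and 22 of the 36 had a positive sign. Leaving out PN56 Klf4CN 2 left 2 calls.

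Sterol synthesis had the highest share of calls of the 31 lists. Of 20 tested members 9 were positive and 0 negative, 45% compared with the 4.61% of all genes, and 18 had a positive sign, with a median of 0.63. Idi1, the isopentenyl diphosphate isomerase gene, had signals of 6253, 4739.9 and 5853 on the E16.5 WT arrays, 4445, 4529 and 4875 on the E16.5 Klf4CN arrays, 1664 and 1686 on the PN56 WT arrays and 4573 and 6366 on the PN56 Klf4CN arrays. At E16.5 the genotypes overlapped. The PN56 WT arrays were the lowest of the 10, and the PN56 Klf4CN arrays were back in the range of the embryonic ones or above it. Its interaction was 1.95 ± 0.21 (SE; limma adjusted p = 5.494e-04). Sqle, encoding squalene epoxidase, gave 1.11 ± 0.15 (SE; limma adjusted p = 0.003), from 1476 and 1264 on the PN56 WT and 3052 and 2689 on the PN56 Klf4CN arrays, against 2608 to 2928 at E16.5. Both were called in all 23 alternative fits. Along the pathway, Hmgcs1 was at 0.59, Pmvk at 0.83, Fdps at 0.86, Fdft1 at 0.70, Cyp51 at 0.82, Msmo1 at 0.85 and Nsdhl at 0.86, all called. With a gene's probe sets averaged, Hmgcs1 was at 0.79, Fdps at 0.44, Fdft1 at 0.64, Cyp51 at 0.60 and Msmo1 at 1.08. These were still positive but none was called (limma adjusted p from 0.079 to 0.50). The second Cyp51 probe set gave 0.16. Dhcr7, which makes cholesterol in the last step, was on the other side at -0.88 ± 0.24 (SE; limma adjusted p = 0.061), not called, and Sc5d at 1.11 ± 0.31 (SE; limma adjusted p = 0.067). The count of called members was 4 without E16.5 WT 1 or E16.5 Klf4CN 3, 5 without E16.5 WT 3, E16.5 Klf4CN 1, PN56 WT 1 or 2 or PN56 Klf4CN 2, and 6 without E16.5 Klf4CN 2. It was 2 without an intensity trend and 2 with the mean of pigment and retinal markers as a covariate, and the list's median stayed between 0.59 and 0.80 over the alternatives.

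Of 37 tested genes of the unfolded protein and integrated stress responses, 4 were positive and 1 negative (13.5%), and the median was 0.16. In the integrated stress response a kinase-driven block of translation raises Atf4. Atf4, its central transcription factor, had signals of 6719.8, 6429.7 and 6762 on the E16.5 WT arrays, 7376, 7122 and 7009 on the E16.5 Klf4CN arrays, 5032 and 4734 on the PN56 WT arrays and 10910.2 and 12311 on the PN56 Klf4CN arrays. Atf5, a related factor, had signals of 2124, 2221 and 2217 on the E16.5 WT arrays, 2024, 2288 and 2111 on the E16.5 Klf4CN arrays, 552 and 820.1 on the PN56 WT arrays and 2807 and 2419 on the PN56 Klf4CN arrays. For both genes the PN56 WT arrays were the lowest of all 10 and the PN56 Klf4CN arrays the highest. The interactions were 1.13 ± 0.12 (SE; limma adjusted p = 5.881e-04) and 1.96 ± 0.21 (SE; limma adjusted p = 5.588e-04). Asns, asparagine synthetase, a known Atf4 target, gave 1.94 ± 0.35 (SE; limma adjusted p = 0.013), from 428 and 180.3 on the PN56 WT and 1061 and 1172 on the PN56 Klf4CN arrays, both below its E16.5 range of 2442 to 2889. The calls of Atf4, Atf5 and Asns were each made with every array left out in turn. That of Atf4 was lost with its probe sets averaged (0.72, limma adjusted p = 0.084). Chaperones and factors of the endoplasmic reticulum lay on both sides: Canx, a lectin chaperone, was at 0.64 ± 0.14 (SE; limma adjusted p = 0.022), while Hspa5, encoding the chaperone BiP, was at -0.57 ± 0.14 (SE; limma adjusted p = 0.034), and Xbp1, Hsp90b1 and Ddit3 were at 0.00, -0.01 and 0.49, none called. The Canx call was lost without E16.5 WT 1, E16.5 Klf4CN 1 or 3, PN56 WT 1 or PN56 Klf4CN 2 (0.52 to 0.64, adjusted p from 0.053 to 0.072), and that of Hspa5 without any one array other than PN56 WT 2 and PN56 Klf4CN 2 (-0.45 to -0.61, adjusted p from 0.059 to 0.11). The list had 3 calls without E16.5 WT 1, E16.5 Klf4CN 1 or 3, or PN56 WT 1, all positive. Trib3, another Atf4 target, was at 2.13 ± 0.70 (SE; limma adjusted p = 0.11).

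Of 24 heat shock and chaperone genes 0 were called positive and 1 negative (4.17%, near the 4.61% of all genes tested), with a list median of -0.03. Hspb1, the small heat shock protein gene that is abundant in adult lens, had signals of 4445, 4494 and 4049 on the E16.5 WT arrays, 7812, 5428 and 8002 on the E16.5 Klf4CN arrays, 104158 and 114749 on the PN56 WT arrays and 78218 and 76437 on the PN56 Klf4CN arrays. Klf4CN arrays were all above WT arrays at E16.5 and all below them at PN56. The interaction was -1.19 ± 0.20 (SE; limma adjusted p = 0.0098), and a second probe set gave -1.45. It was called with every array left out in turn. Hspe1, the mitochondrial co-chaperonin gene, missed the threshold at 0.85 ± 0.22 (SE; limma adjusted p = 0.052).

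**Figure D2:**
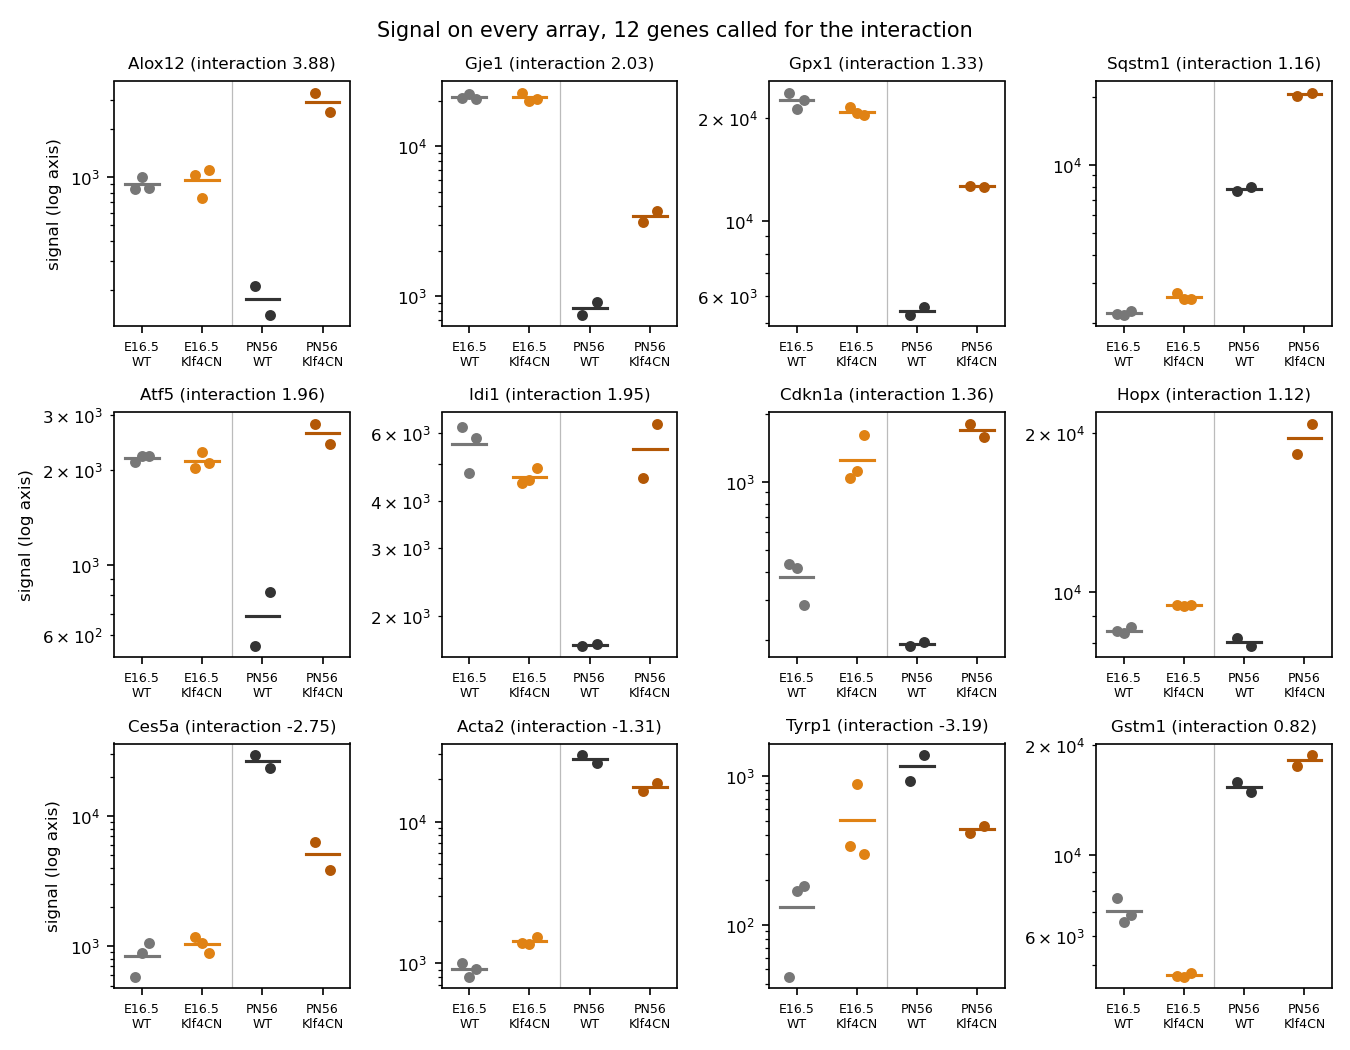
Signal on every array (vertical, log axis that differs between panels) for 12 called genes in the 4 groups; points are arrays and bars are group means. In Alox12, Gje1, Gpx1, Atf5 and Idi1 the 2 PN56 WT arrays lie lowest, in Ces5a and Acta2 they lie highest, and in Gstm1 the E16.5 Klf4CN arrays lie lowest.

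Antioxidant genes gave 6 positive and 2 negative calls among 30 tested members (26.7%), with a median of 0.18. Gpx1, the cytosolic glutathione peroxidase gene, had signals of 23789, 21317 and 22691 on the E16.5 WT arrays, 21539.5, 20662 and 20379.8 on the E16.5 Klf4CN arrays, 5271 and 5571 on the PN56 WT arrays and 12632 and 12593 on the PN56 Klf4CN arrays. All 4 PN56 arrays were below all E16.5 arrays, and at PN56 Klf4CN stood above WT. Its interaction was 1.33 ± 0.12 (SE; limma adjusted p = 2.281e-04). Gpx4, encoding the peroxidase that reduces lipid hydroperoxides, gave 0.97 ± 0.14 (SE; limma adjusted p = 0.0039), from 9327 and 8388 on the PN56 WT and 15448 and 17923 on the PN56 Klf4CN arrays, with 7699 to 9000.4 at E16.5. Gpx1 and Gpx4 were called in all 23 alternative fits, but a second Gpx4 probe set was not called (limma adjusted p = 0.13). Gstp1, a glutathione transferase gene, gave 0.69 ± 0.12 (SE; limma adjusted p = 0.012), Gstm5 0.74 ± 0.14 (SE; limma adjusted p = 0.016) and Mt1, a metallothionein gene, 1.37 ± 0.31 (SE; limma adjusted p = 0.03). Cat, encoding catalase, was negative at -0.78 ± 0.19 (SE; limma adjusted p = 0.037), as was Gsto1 at -0.72 ± 0.15 (SE; limma adjusted p = 0.023). Calls were lost for Mt1 without any one array other than E16.5 WT 2, PN56 WT 2 and PN56 Klf4CN 1 (1.01 to 1.42, adjusted p from 0.055 to 0.11), for Cat without any one array other than E16.5 WT 3, E16.5 Klf4CN 3 and PN56 Klf4CN 2 (-0.62 to -0.83, adjusted p from 0.058 to 0.11), for Gsto1 without E16.5 WT 2, E16.5 Klf4CN 3 or PN56 WT 1 (-0.65 to -0.72, adjusted p from 0.051 to 0.064) and for Gstm5 without PN56 WT 1 (0.67, adjusted p = 0.051). The list had 4 positive and 0 negative calls without PN56 WT 1.

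Sqstm1, which encodes the autophagy receptor p62 and is itself induced by oxidative stress, had signals of 2202, 2169.6 and 2271 on the E16.5 WT arrays, 2706, 2570.4 and 2557 on the E16.5 Klf4CN arrays, 7644 and 7994 on the PN56 WT arrays and 20157 and 20912 on the PN56 Klf4CN arrays. Genotypes did not overlap at either stage, and the gap widened from a log2 difference of 0.24 at E16.5 to 1.39 at PN56. The interaction was 1.16 ± 0.12 (SE; limma adjusted p = 4.979e-04), called with every array left out, and it was not called with its probe sets averaged (0.78, adjusted p = 0.45). Map1lc3b, the LC3 gene of the autophagosome membrane, gave 0.89 ± 0.13 (SE; limma adjusted p = 0.004), from 7567 and 7307 on the PN56 WT and 13589 and 14015 on the PN56 Klf4CN arrays, but its other probe sets gave -0.46 and -0.14. These were the 2 calls among 24 autophagy and lysosome genes (8.33%, against 4.61% of all genes tested), both positive, and the list median was 0.14. Members ran from -1.52 to 1.16, and 15 of the 24 had a positive sign.

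Lens fibre genes gave calls of both signs. Of 16 tested, 2 were positive and 4 negative (37.5%), with a median of -0.13. Gje1, a connexin gene of lens fibres, had signals of 21027, 22426 and 20639.9 on the E16.5 WT arrays, 22838, 20229.6 and 20855 on the E16.5 Klf4CN arrays, 750.0 and 915 on the PN56 WT arrays and 3154 and 3714 on the PN56 Klf4CN arrays. The 6 embryonic arrays were alike, the adult ones were far lower, and among these Klf4CN stood above WT. The interaction was 2.03 ± 0.16 (SE; limma adjusted p = 1.124e-04), and it was called in all 23 alternative fits. Hopx, a homeodomain-only protein gene, had signals of 8439, 8350.5 and 8582 on the E16.5 WT arrays, 9464, 9418 and 9476 on the E16.5 Klf4CN arrays, 8194 and 7899.9 on the PN56 WT arrays and 18309 and 20876 on the PN56 Klf4CN arrays. The PN56 Klf4CN arrays were the highest of the 10 and the PN56 WT arrays the lowest. Its interaction was 1.12 ± 0.12 (SE; limma adjusted p = 5.494e-04), a second probe set gave 1.68, and it too was called in all 23 fits. Negative calls were Bfsp1, encoding the beaded filament protein filensin, at -0.59 ± 0.14 (SE; limma adjusted p = 0.03), Dnase2b, the nuclease that degrades fibre cell DNA, at -1.07 ± 0.25 (SE; limma adjusted p = 0.033), Birc7, an inhibitor of apoptosis gene, at -0.96 ± 0.22 (SE; limma adjusted p = 0.033), and Tdrd7, an RNA granule gene linked to cataract, at -0.56 ± 0.12 (SE; limma adjusted p = 0.022). For all 4 both PN56 WT arrays were the highest of the 10; Dnase2b, for example, had 3553, 3411 and 2943 on the E16.5 WT and 3477, 2091 and 2574 on the E16.5 Klf4CN arrays and 17908 and 14335 on the PN56 WT and 6053 and 6273 on the PN56 Klf4CN arrays. The list had 0 negative calls without E16.5 WT 1, E16.5 Klf4CN 3 or PN56 Klf4CN 2, 1 without E16.5 WT 2 or E16.5 Klf4CN 1, 2 without E16.5 WT 3 or PN56 WT 2, and 0 with arrays centred on their medians. With probe sets averaged none of the 4 negative calls was made, and Tdrd7 was at -0.39 (limma adjusted p = 0.54). Mip, Lim2, Gja3 and Cdh2, the main water channel, a membrane protein, a connexin and N-cadherin of fibres, were between -0.20 and 0.14. Bfsp2, the partner of filensin, was at -0.44 ± 0.14 (SE; limma adjusted p = 0.098).

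Crystallins, the bulk proteins of the lens, gave 1 negative and 0 positive calls among 14 tested (7.14%, against 4.61% of all genes tested). Of the 14, 12 were negative in sign, and the median was -0.28. Crygf, a gamma-crystallin gene, had signals of 39556, 40914 and 46824 on the E16.5 WT arrays, 36872, 40041 and 34439 on the E16.5 Klf4CN arrays, 71974 and 87142 on the PN56 WT arrays and 37306 and 40459.6 on the PN56 Klf4CN arrays. The 2 PN56 WT arrays were the highest of all 10, and the PN56 Klf4CN arrays lay within the embryonic range. Its interaction was -0.84 ± 0.16 (SE; limma adjusted p = 0.015), called with every array left out but not with arrays centred on their medians (-0.66, adjusted p = 0.053). Cryaa and Cryab, the alpha-crystallin chaperones, were at -0.29 and -0.38, Crybb2 at -0.77, and Cryga and Crygn at 0.08 and 0.55, none called. The list median was 0.014 with quantile normalization. Gamma-crystallin genes are near-identical copies, and a probe set can take signal from more than one of them.

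Lens epithelium genes gave 1 positive and 1 negative call among 15 (13.3%, against 4.61% of all genes tested), with a median of -0.25. Aqp1, the water channel of the epithelium, was at -1.05 ± 0.24 (SE; limma adjusted p = 0.03), from 5235 and 4479 on the PN56 WT and 2602 and 2235 on the PN56 Klf4CN arrays, against 216 to 293 at E16.5. Cdh1, encoding E-cadherin, was at 0.84 ± 0.21 (SE; limma adjusted p = 0.044) and is taken up with the genes that differed in the embryo. Gja1, the epithelial connexin 43 gene, was at -1.28 ± 0.41 (SE; limma adjusted p = 0.1), not called. Mafg, a small Maf factor, was the 1 call among 14 fibre transcription factor genes (7.14%, against 4.61% of all genes tested), at 0.79 ± 0.20 (SE; limma adjusted p = 0.042). Of 15 tested Kruppel-like factors, limma called 0 (1 at an unadjusted p under 0.05, against 20.4% of all genes tested), with Klf5 at 0.93 and Klf7 at -0.35. Col4a1, a type IV collagen chain of the lens capsule, was the 1 call among 23 capsule genes (4.35%), at -0.77 ± 0.18 (SE; limma adjusted p = 0.035). Among 21 TGF-beta and mesenchymal transition genes 1 was called positive and 1 negative (9.52%). Tgfbi, a TGF-beta-induced matrix protein gene, was at 2.16 ± 0.46 (SE; limma adjusted p = 0.022), from 189 and 245 on the PN56 WT and 1089 and 859 on the PN56 Klf4CN arrays. Calls were lost for Aqp1 without E16.5 WT 3, E16.5 Klf4CN 1 or 2, PN56 WT 1 or PN56 Klf4CN 2 (-0.94 to -1.01, adjusted p from 0.057 to 0.1), for Mafg without any one array other than E16.5 WT 2 and PN56 WT 2 (0.66 to 0.90, adjusted p from 0.052 to 0.13), for Col4a1 without any one array other than E16.5 WT 3, PN56 WT 2 and PN56 Klf4CN 1 (-0.57 to -0.79, adjusted p from 0.061 to 0.11) and for Tgfbi without E16.5 WT 1 or 2, PN56 WT 1 or PN56 Klf4CN 1 (1.98 to 2.02, adjusted p from 0.0501 to 0.072). Of 14 FGF receptor and ERK feedback genes limma called 0 (5 at an unadjusted p under 0.05, against 20.4% of all genes tested).

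**Figure D3:**
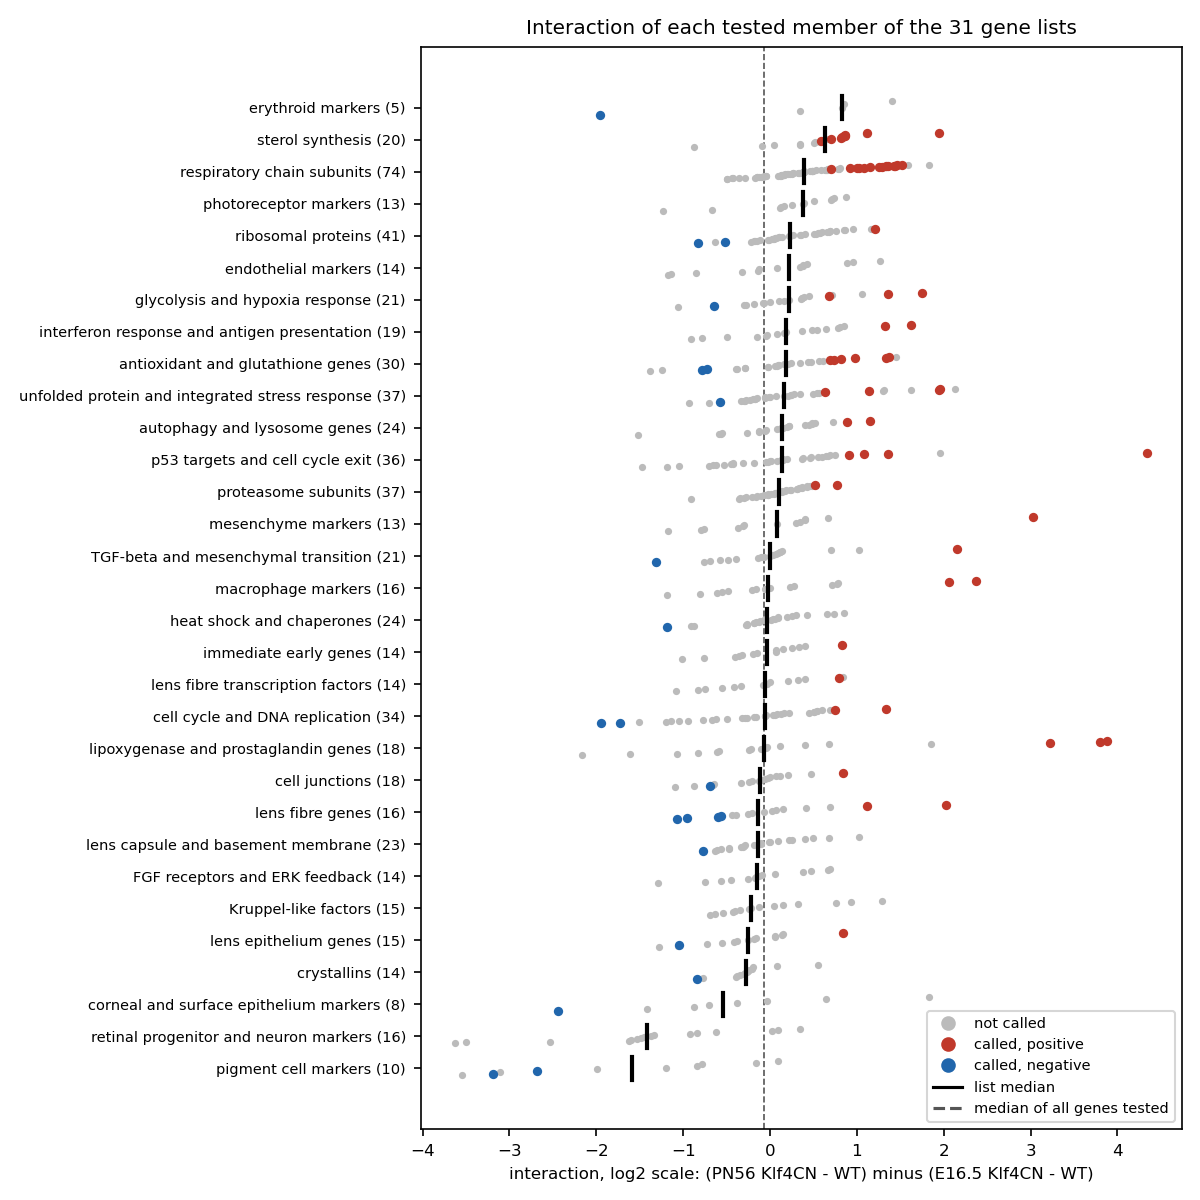
Interaction of each tested member (points) of the 31 gene lists, ordered by the list median (black bar), with calls in red (positive) and blue (negative), numbers of tested members in brackets and the median of all genes tested as a dashed line at -0.07. Sterol synthesis at 0.63 and respiratory chain subunits at 0.39 have red points and no blue ones, and pigment cell markers at -1.59 and retinal markers at -1.41 lie farthest to the left.

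Respiratory chain subunits, the mitochondrial proteins that fibres lose as they mature, had 14 positive and 0 negative calls among 74 tested (18.9%). Their median was 0.39, and 59 of 74 had a positive sign. Atp5e, a subunit of ATP synthase, had signals of 14729, 13777 and 13400.1 on the E16.5 WT arrays, 13060.5, 13522 and 13534 on the E16.5 Klf4CN arrays, 3530.2 and 5514 on the PN56 WT arrays and 9208 and 16025 on the PN56 Klf4CN arrays. Its embryonic arrays were alike, and the second PN56 Klf4CN array reached their level while the first did not. The interaction was 1.52 ± 0.29 (SE; limma adjusted p = 0.016). Ndufa1, of complex I, gave 1.29 ± 0.24 (SE; limma adjusted p = 0.015) and Uqcr11, of complex III, 1.43 ± 0.29 (SE; limma adjusted p = 0.019). The other 11 called members lay between 0.70 and 1.47. This count rested on single PN56 arrays: it was 1 without PN56 WT 1, 24 without PN56 WT 2, 29 (with 1 negative) without PN56 Klf4CN 1 and 4 without PN56 Klf4CN 2. Without an E16.5 array it was 5 (WT 1 or Klf4CN 3), 6 (Klf4CN 1), 7 (WT 2), 8 (Klf4CN 2) or 11 (WT 3). The list median was 0.23 to 0.58 over the alternatives, positive in each. With a gene's probe sets averaged, Uqcrq fell from 1.15 to 0.13 and Ndufb2 from 1.08 to 0.43. Cox6c was then at 0.96 and Uqcr10 at 1.25, while Ndufa5 rose from 0.92 to 1.09. None of these was called there (limma adjusted p from 0.087 to 0.88), nor was Ndufa6 (limma adjusted p = 0.066). The other called members kept their calls in that fit.

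Of 41 ribosomal protein genes 1 was called positive and 2 negative (7.32%, against 4.61% of all genes tested), with a median of 0.23. Rpl37a was at 1.21 ± 0.25 (SE; limma adjusted p = 0.019), with signals of 17343 and 26239.7 on the PN56 WT and 35975 and 54143 on the PN56 Klf4CN arrays, and Rps6 at -0.51 ± 0.12 (SE; limma adjusted p = 0.035), whose second probe set gave 0.89. Without PN56 WT 2 or PN56 Klf4CN 1 the counts were 10 positive and 0 negative, without PN56 WT 1 they were 0 and 0, without PN56 Klf4CN 2 they were 0 and 1, and without E16.5 WT 1 or 2 or E16.5 Klf4CN 3 they were 1 and 0. The Rpl37a call was lost without PN56 WT 1 or PN56 Klf4CN 2 (0.91, adjusted p from 0.057 to 0.058), and that of Rps6 without any one array other than PN56 Klf4CN 2 (-0.44 to -0.54, adjusted p from 0.057 to 0.085). A control for B1 repeats, which are spread through mouse transcripts, read 3652 and 986 in PN56 WT and 4987 and 47064 in PN56 Klf4CN, and its part in these counts was not tested. Of 37 proteasome subunits 2 were called (5.41%, near the 4.61% of all genes tested), both positive. Psmd9 was at 0.77 ± 0.17 (SE; limma adjusted p = 0.027) and Psmd8 at 0.52 ± 0.13 (SE; limma adjusted p = 0.041). With probe sets averaged Psmd9 was at 0.62 (limma adjusted p = 0.34) and Psmd8 at 0.52 (limma adjusted p = 0.058), neither called. The list had 0 calls without E16.5 WT 1 or 2, E16.5 Klf4CN 1 or 3, PN56 WT 1 or PN56 Klf4CN 2, and 4 without PN56 Klf4CN 1.

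Cell cycle genes were mixed, with 2 positive and 2 negative calls among 34 (11.8%, against 4.61% of all genes tested) and a median of -0.06. Mcm2, a subunit of the replicative helicase, had signals of 1646, 1276 and 1275 on the E16.5 WT arrays, 1463, 2059 and 1376 on the E16.5 Klf4CN arrays, 830.5 and 1016 on the PN56 WT arrays and 298 and 233 on the PN56 Klf4CN arrays. At E16.5 the genotypes overlapped, and the PN56 Klf4CN arrays were the lowest of the 10. The interaction was -1.95 ± 0.28 (SE; limma adjusted p = 0.0035), but a second probe set gave 0.02. Mcm6, of the same helicase, was at -1.73 ± 0.42 (SE; limma adjusted p = 0.036). Cdca8, which encodes the chromosomal passenger protein borealin, gave -1.85 ± 0.22 (SE; limma adjusted p = 0.0013), from 1591, 2098 and 1693 on the E16.5 WT and 2048, 2617 and 2189 on the E16.5 Klf4CN arrays and 774 and 865 on the PN56 WT and 308 and 253 on the PN56 Klf4CN arrays, with other probe sets at -0.75 and -2.30. Ccnd2, a G1 cyclin gene, was positive at 0.75 ± 0.15 (SE; limma adjusted p = 0.017), as was E2f1, an S-phase transcription factor gene, at 1.34 ± 0.29 (SE; limma adjusted p = 0.024), with a second probe set at -0.25. Calls were lost for Mcm6 without any one array other than E16.5 WT 2, E16.5 Klf4CN 1 and PN56 Klf4CN 1 (-1.11 to -1.86, adjusted p from 0.054 to 0.11) and for E2f1 without any one array other than PN56 WT 1 and 2 and PN56 Klf4CN 1 (1.14 to 1.36, adjusted p from 0.057 to 0.069). The list had 1 positive and 1 negative call without E16.5 WT 3, E16.5 Klf4CN 2 or 3 or PN56 Klf4CN 2.

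Genes of glycolysis and hypoxia response gave 3 positive and 1 negative call among 21 (19.0%), with a median of 0.22. Vegfa, the vascular growth factor gene, was at 1.36 ± 0.25 (SE; limma adjusted p = 0.015), with signals of 269.9 and 391 on the PN56 WT and 855 and 750.5 on the PN56 Klf4CN arrays against 1378 to 1936 at E16.5, and its second probe set gave 0.25. Ankrd37, a hypoxia-induced gene, was at 1.75 ± 0.37 (SE; limma adjusted p = 0.022) and Pkm, pyruvate kinase, at 0.68 ± 0.17 (SE; limma adjusted p = 0.038). Slc2a1, encoding the glucose transporter GLUT1, was negative at -0.65 ± 0.13 (SE; limma adjusted p = 0.02). Calls were lost for Ankrd37 without E16.5 WT 1 or 2, E16.5 Klf4CN 3, PN56 WT 2 or PN56 Klf4CN 2 (1.54 to 1.76, adjusted p from 0.052 to 0.072), for Pkm without any one array other than E16.5 WT 2 (0.58 to 0.78, adjusted p from 0.0503 to 0.097) and for Slc2a1 without E16.5 Klf4CN 1 or 3 (-0.62 to -0.64, adjusted p from 0.051 to 0.052). The list had 2 calls without E16.5 WT 1, E16.5 Klf4CN 1, PN56 WT 2 or PN56 Klf4CN 2, and 1 without E16.5 Klf4CN 3. Dusp1, a phosphatase that turns off MAP kinases, was the 1 call among 14 immediate early genes (7.14%, against 4.61% of all genes tested). It was at 0.83 ± 0.16 (SE; limma adjusted p = 0.016), lost without PN56 Klf4CN 2 (0.75). H2-D1 and B2m, a class I MHC heavy chain and its light chain, were at 1.62 ± 0.30 (SE; limma adjusted p = 0.013) and 1.33 ± 0.31 (SE; limma adjusted p = 0.032). They were the 2 positive calls among 19 interferon and antigen presentation genes (10.5%, against 4.61% of all genes tested). The H2-D1 call was lost with its probe sets averaged (0.59, limma adjusted p = 0.41). It was also lost with the mean of pigment and retinal markers as a covariate (1.30, limma adjusted p = 0.078). That of B2m was lost without any one array other than E16.5 WT 3, E16.5 Klf4CN 1, PN56 WT 2 and PN56 Klf4CN 1 (0.95 to 1.32). Without an E16.5 array its limma adjusted p was 0.065 to 0.073 where lost. Ctnna2, encoding alpha-N-catenin, was at -0.70 ± 0.15 (SE; limma adjusted p = 0.024), 1 of 2 calls among 18 junction genes (11.1%). Its call was lost without E16.5 WT 2 or E16.5 Klf4CN 1 (limma adjusted p from 0.055 to 0.060) and without PN56 WT 1 or PN56 Klf4CN 2. Where lost, it was at -0.63 to -0.67.

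Beyond the lists, the largest positive value was that of Rgs13, a regulator of G protein signalling, with signals of 203, 258 and 163 on the E16.5 WT arrays, 116, 110.0 and 72.2 on the E16.5 Klf4CN arrays, 22.7 and 4.6 on the PN56 WT arrays and 334 and 446 on the PN56 Klf4CN arrays. Klf4CN arrays were all below WT arrays at E16.5 and all above them at PN56, and the interaction was 4.79 ± 0.52 (SE; limma adjusted p = 5.588e-04). Because both PN56 WT signals were near the offset, the value was 6.13 with 1 added before the log and 3.28 with 64. Pdlim2, a PDZ and LIM domain protein gene, gave 3.91 ± 0.38 (SE; limma adjusted p = 3.548e-04), from 37.3 and 23.6 on the PN56 WT and 650.2 and 852 on the PN56 Klf4CN arrays. Igfbp2, an insulin-like growth factor binding protein gene, gave 3.20 ± 0.40 (SE; limma adjusted p = 0.0017), from 199.6 and 204 on the PN56 WT and 2196 and 2058 on the PN56 Klf4CN arrays. Lypd6b gave 3.46 ± 0.32 (SE; limma adjusted p = 2.542e-04), and there both WT groups and embryonic Klf4CN were alike, at 169 to 289, while the PN56 Klf4CN arrays read 2584 and 2016. These 4 were called in all 23 alternative fits. Rftn2 was at 3.42, Fgd5 at 3.33, Foxo4, a forkhead factor gene, at 3.16, and Ush1c at 3.14. The second probe sets of Rftn2 and Foxo4 gave 1.73 and 1.08, and averaging probe sets ended both calls (1.73, adjusted p = 0.082, and 2.12, adjusted p = 0.069). The Ush1c call was lost without any one array other than E16.5 WT 2, E16.5 Klf4CN 1 and PN56 WT 1 (2.50 to 3.29, adjusted p from 0.076 to 0.089).

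Among the 12 largest negative values that the rule took was that of Ces5a, a carboxylesterase gene, with signals of 579, 891 and 1053 on the E16.5 WT arrays, 1170.4, 1061 and 881 on the E16.5 Klf4CN arrays, 29743 and 23544 on the PN56 WT arrays and 6319 and 3869 on the PN56 Klf4CN arrays. The PN56 WT arrays were over 3 times as bright as any other, and its interaction was -2.75 ± 0.35 (SE; limma adjusted p = 0.0018), with other probe sets at -2.07 and -1.87, called in all 23 alternative fits. Dimmer genes with large negative values were Zfp526 at -3.42 ± 0.66 (SE; limma adjusted p = 0.016), Doc2b at -3.38 ± 0.81 (SE; limma adjusted p = 0.037), Magel2 at -3.10 ± 0.57 (SE; limma adjusted p = 0.013), Prokr1, a prokineticin receptor gene, at -2.80 ± 0.53 (SE; limma adjusted p = 0.015), and Dmbx1, a homeobox gene, at -2.69 ± 0.48 (SE; limma adjusted p = 0.012). In each of these 5 the PN56 WT arrays were the highest of the 10 and read 131 to 514. With probe sets averaged Zfp526 was at -1.62 (limma adjusted p = 0.079) and Prokr1 at -1.02 (limma adjusted p = 0.22), neither called. With the mean of pigment and retinal markers as a covariate Magel2 was at -2.76 (limma adjusted p = 0.078) and Dmbx1 at -2.43 (limma adjusted p = 0.073), neither called. Over the alternatives Zfp526 ran from -4.93 to -1.62 and Magel2 from -4.56 to -1.75. The Doc2b call was lost without any one array other than E16.5 WT 1 and PN56 Klf4CN 2 (-2.63 to -3.52, adjusted p from 0.058 to 0.087). A530047J11Rik, Arhgap30, Gdap1 and Coro2a lay between -2.94 and -2.64, the second probe set of Arhgap30 gave 0.21 and the other probe sets of Gdap1 gave 0.14, 1.34 and -0.16. With its probe sets averaged Gdap1 was at -0.33 (adjusted p = 0.77). Their calls were lost without E16.5 Klf4CN 1 or 3 or PN56 WT 2 (-2.57 to -2.99, adjusted p from 0.053 to 0.061) for A530047J11Rik, without any one array other than E16.5 WT 3, PN56 WT 2 and PN56 Klf4CN 2 (-2.52 to -3.07, adjusted p from 0.0501 to 0.099) for Arhgap30, without E16.5 Klf4CN 3 or PN56 Klf4CN 2 (-2.11 to -2.59, adjusted p from 0.051 to 0.056) for Gdap1 and without any one array other than E16.5 WT 3 and PN56 Klf4CN 1 (-2.37 to -2.82, adjusted p from 0.068 to 0.11) for Coro2a.

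A reversal of the genotype difference between the stages, with at least 0.3 on the log2 scale at each, was seen in 63 called genes (10.2% of calls and 5.83% of tested genes), 21 positive and 42 negative. Acta2, encoding smooth muscle actin, had signals of 1000.2, 799.6 and 919.6 on the E16.5 WT arrays, 1401, 1369.8 and 1532 on the E16.5 Klf4CN arrays, 29598 and 25801 on the PN56 WT arrays and 16490.3 and 18787 on the PN56 Klf4CN arrays. Klf4CN was above WT on every array at E16.5 and below it on every array at PN56, with both genotypes far brighter at PN56 than at E16.5. The interaction was -1.31 ± 0.17 (SE; limma adjusted p = 0.0018), called with every array left out. With its probe sets averaged Acta2 was not called (-1.08, limma adjusted p = 0.11). Pygl, the liver glycogen phosphorylase gene, went the same way at -1.17 ± 0.19 (SE; limma adjusted p = 0.0075), with 1652, 1371 and 1849.8 on the E16.5 WT and 1900.2, 2371 and 2238 on the E16.5 Klf4CN arrays and 10247 and 9554 on the PN56 WT and 6162 and 5607 on the PN56 Klf4CN arrays. Prpf40b, a splicing factor gene, went the other way at 2.21 ± 0.37 (SE; limma adjusted p = 0.0089). Rgs13, Cdca8, Ces5a and Hspb1, given above, also reversed.

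Few genes differed mainly in the embryo. Only 4 of 620 calls had a genotype difference of at least 0.3 at E16.5 and less at PN56, 0.645% compared with 7.01% of tested genes. Gstm1, a glutathione transferase gene, had signals of 7619.7, 6562 and 6856 on the E16.5 WT arrays, 4664, 4630.5 and 4753 on the E16.5 Klf4CN arrays, 15845 and 14909 on the PN56 WT arrays and 17549 and 18862 on the PN56 Klf4CN arrays. All 3 E16.5 Klf4CN arrays were below all E16.5 WT arrays, and at PN56 the Klf4CN arrays were the brighter ones. The interaction was 0.82 ± 0.13 (SE; limma adjusted p = 0.006), but its other probe sets gave -0.75, -0.06 and 0.21. Rcan2, a calcineurin regulator gene, gave 0.87 ± 0.16 (SE; limma adjusted p = 0.013), from 4704, 4312 and 4255 on the E16.5 WT and 3213, 2589 and 2583 on the E16.5 Klf4CN arrays, with 8512 to 10614 at PN56 and a second probe set at 1.28. Cdh1 had 7124, 5472 and 6771 on the E16.5 WT and 5068, 3679 and 4122 on the E16.5 Klf4CN arrays, with 2931 to 3954 at PN56. Me1, the cytosolic malic enzyme gene, was negative at -0.65 ± 0.16 (SE; limma adjusted p = 0.037), from 872, 828 and 996 on the E16.5 WT and 1270.2, 1221 and 1284 on the E16.5 Klf4CN arrays. The Me1 call was lost without any one array other than E16.5 WT 3 (-0.58 to -0.71, adjusted p from 0.055 to 0.088), and that of Cdh1 without any one array other than E16.5 WT 2 and E16.5 Klf4CN 1 (0.71 to 0.96, adjusted p from 0.056 to 0.12). Dner and Cep68 had the same pattern and were not called, at -0.61 ± 0.16 (SE; limma adjusted p = 0.055) and -0.57 ± 0.16 (SE; limma adjusted p = 0.063).

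Markers of other tissues that can adhere to a dissected lens were read on every array. Of 10 pigment cell markers, 2 were called (20%, against 4.61% of all genes tested), both negative, 9 had a negative sign and the median was -1.59. Tyrp1, a melanin synthesis enzyme gene, had signals of 44.3, 168 and 181 on the E16.5 WT arrays, 338, 889 and 300.2 on the E16.5 Klf4CN arrays, 930.5 and 1393 on the PN56 WT arrays and 416 and 462 on the PN56 Klf4CN arrays, an interaction of -3.19 ± 0.72 (SE; limma adjusted p = 0.029) that was lost without PN56 WT 1 or 2 or PN56 Klf4CN 1 or 2 (-2.90 to -3.48, adjusted p from 0.056 to 0.077), and Pmel, the melanosome fibril gene, gave -2.68 ± 0.64 (SE; limma adjusted p = 0.035), lost without any one array other than E16.5 WT 3 and E16.5 Klf4CN 3 (-2.34 to -2.86, adjusted p from 0.067 to 0.091). Dct and Mlana missed the threshold at -3.54 ± 0.93 (SE; limma adjusted p = 0.051) and -3.11 ± 0.94 (SE; limma adjusted p = 0.084). The mean log2 signal of the 10 pigment markers was 7.45 to 8.47 on E16.5 WT arrays, 8.31 to 9.91 on E16.5 Klf4CN arrays, 9.53 and 9.89 on PN56 WT arrays and 9.19 and 9.17 on PN56 Klf4CN arrays. Called pigment markers were 0 without any one PN56 array, 1 without E16.5 WT 1 or 2 or E16.5 Klf4CN 1 or 2, 4 without E16.5 WT 3 and 3 without E16.5 Klf4CN 3. Of 16 retinal progenitor and neuron markers limma called 0 (4 at an unadjusted p under 0.05, against 20.4% of all genes tested). Of the 16, 13 had a negative sign, and the median was -1.41. Their mean level was 6.27 on E16.5 WT 1, 8.65 and 9.50 on the other E16.5 WT arrays, 8.93 to 10.43 on E16.5 Klf4CN arrays and 7.14 to 7.45 on the 4 PN56 arrays. Dcx and Nefl, neuronal cytoskeleton genes, were at -3.62 and -3.50, and Dcx read 5.1 and 3.4 on the PN56 Klf4CN arrays.

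With the mean of both marker lists as a covariate in the fit, 143 genes were called, and 137 of the 620 were among them. Alox12, Alox15, Ptgfr, Pmaip1, Idi1, Sqle, Gje1, Hopx, Gpx1, Gpx4, Atf5, Rgs13, Lypd6b, Igfbp2, Pdlim2 and Ces5a kept their call and sign there. Many other calls were not made there. Sterol synthesis had 2 calls (Idi1 and Sqle) in place of 9, with a median of 0.68, and respiratory chain subunits had 0 in place of 14, with a median of 0.38; Atp5e was at 1.47 and Ndufa1 at 1.37. Antioxidant genes had 3 positive and 0 negative calls, without Gstp1, Gstm5, Mt1, Cat and Gsto1. Genes of the p53 list had 1 call, without Cdkn1a (1.16), Cdkn1b (1.15) and Aen (0.81), the unfolded protein and integrated stress response 3, without Canx and Hspa5, and glycolysis and hypoxia response 0, Vegfa being at 1.29. Lens fibre genes had 2 positive and 1 negative call and crystallins 0, Crygf being at -0.72. Tyrobp was at 1.88, Mcm6 at -1.45, Tyrp1 at -1.82 and Pmel at -1.97, none called. Tyrp1 and Pmel are themselves part of the pigment list in the covariate, so their lost calls there test nothing. For negative interactions and for the genes not called there, the part of adhering tissue was not tested beyond this fit.

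**Figure D4:**
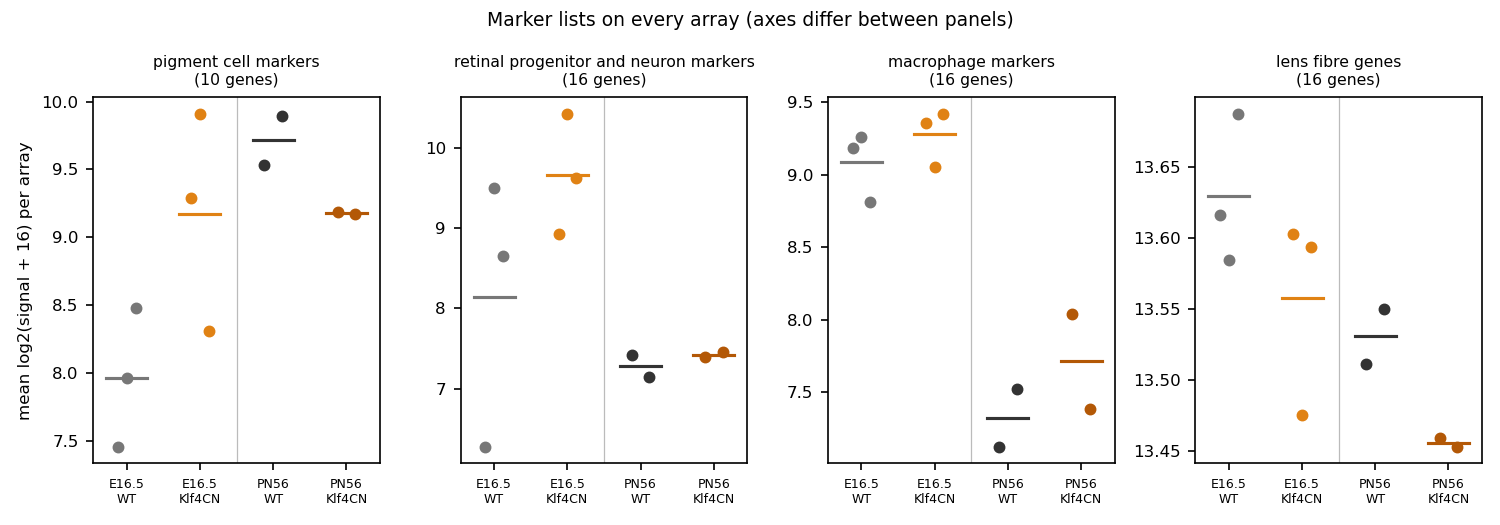
Mean log2(signal + 16) per array (vertical) of pigment, retinal and macrophage markers and of lens fibre genes in the 4 groups; points are arrays, bars are group means and axes differ between panels. Pigment and retinal markers were lowest on E16.5 WT 1 (7.45 and 6.27), while lens fibre genes stayed between 13.45 and 13.69.

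Macrophage markers had 2 positive calls among 16 (12.5%, against 4.61% of all genes tested) and a median of -0.03. Tyrobp, a signalling adaptor of myeloid cells, was at 2.06 ± 0.41 (SE; limma adjusted p = 0.017), from 785, 762 and 513 on the E16.5 WT and 846, 823 and 950.4 on the E16.5 Klf4CN arrays and 5.7 and 25.1 on the PN56 WT and 166 and 126 on the PN56 Klf4CN arrays, and Cd68, a lysosomal protein of macrophages, at 2.37 ± 0.57 (SE; limma adjusted p = 0.037). With 64 added before the log, Tyrobp was not called (1.07, adjusted p = 0.057). The Cd68 call was lost without any one array other than E16.5 WT 3 and PN56 WT 2 (1.66 to 2.53, adjusted p from 0.065 to 0.086). The mean macrophage level was 8.81 to 9.42 at E16.5, 7.12 and 7.52 in PN56 WT and 8.04 and 7.38 in PN56 Klf4CN, so the PN56 genotypes overlapped. Foxc2, a mesenchymal forkhead gene, was the 1 call among 13 mesenchyme markers (7.69%, against 4.61% of all genes tested). It was at 3.03 ± 0.60 (SE; limma adjusted p = 0.017), lost without PN56 Klf4CN 2 (2.91). Krt6a, a surface keratin gene, was the 1 call among 8 corneal and surface epithelium markers (12.5%) at -2.44 ± 0.50 (SE; limma adjusted p = 0.02). Its call was lost without E16.5 Klf4CN 3 (-2.32, limma adjusted p = 0.059) or PN56 Klf4CN 2 (-2.29). Of 14 endothelial and 13 photoreceptor markers limma called 0 (3 and 0 at an unadjusted p under 0.05, against 20.4% of all genes tested). The photoreceptor mean was 5.29 to 5.67 at E16.5, 8.98 and 8.88 in PN56 WT, 10.11 on PN56 Klf4CN 1 and 8.66 on PN56 Klf4CN 2. Their median interaction was 0.38, -0.29 without PN56 Klf4CN 1 and 1.05 without PN56 Klf4CN 2. The part of these levels in the 939 calls without PN56 Klf4CN 1 was not tested. Hba-x, an embryonic globin gene, was the 1 negative call among 5 erythroid markers (20%), at -1.96 ± 0.46 (SE; limma adjusted p = 0.033). Its call was lost without any one array other than E16.5 Klf4CN 2 and PN56 Klf4CN 1 (-1.72 to -2.09). Without an E16.5 array its limma adjusted p was 0.057 to 0.089 where lost. The 18S ribosomal RNA control of the 5' end read 1869 ± 646 on E16.5 WT and 21778 ± 945 on E16.5 Klf4CN arrays (SD, n = 3 each), 528 and 2870.0 on PN56 WT and 5700.1 and 11005 on PN56 Klf4CN arrays. The 3' to 5' signal ratio of Actb, a sign of RNA length, was 1.33 to 1.58 at E16.5, 1.79 and 1.88 in PN56 WT and 1.60 and 1.46 in PN56 Klf4CN; its part in the interaction was not tested.

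**Figure D5:**
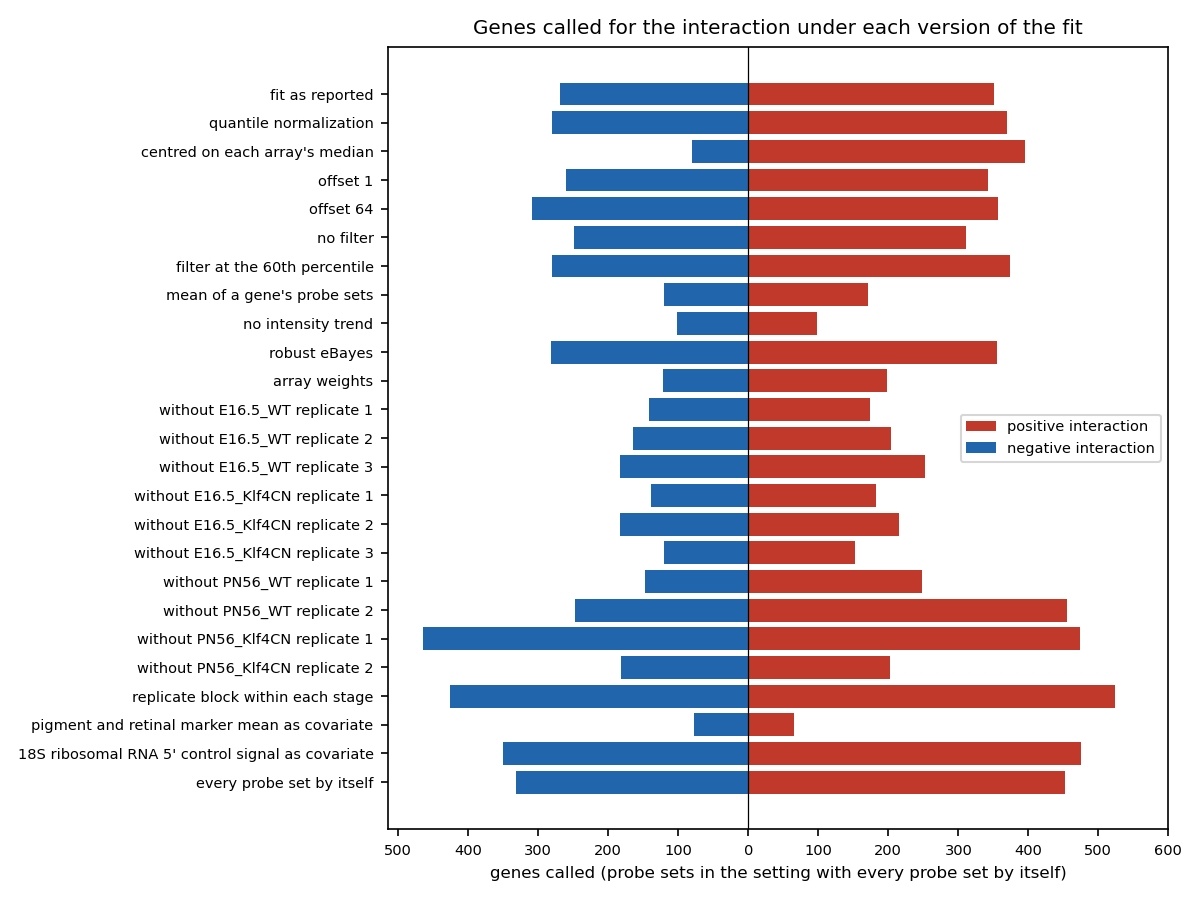
Genes called with a positive (right, red) and a negative (left, blue) interaction under the fit as reported and each alternative (horizontal axis, counts, with probe sets in the last bar). Counts run from 143 with the marker covariate to 950 with the replicate block, and centring on array medians left 81 negative calls.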

How the data were processed

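The values the authors deposited were linear intensities, 1 for each probe set on each array, from GCOS 1.4 per the submitters' processing notes; further steps: not given in the sources used here. All 10 arrays had a mean of 500 after trimming 2% at each end, so they had been scaled one by one. No detection call was used. Of 45101 probe sets 34945 had a single gene symbol, and the brightest stood for its gene. Genes whose mean signal reached the 40th percentile (54.1) were tested as log2 of the deposited signal plus 16, a scale that understates changes of dim genes. All 10 arrays entered one limma fit (3.58.1, R 4.3.3) of 4 group means with an intensity trend, and the interaction was tested, two-sided, as a contrast, adjusted over all 13444 genes. The fit was tested on simulated data, with noise of equal size on all 10 arrays for a gene. That test could not show the effect of noise that differs between stages. In the fit with array weights, which counts noisier arrays less, PN56 arrays had weights of 0.62 and E16.5 arrays 1.16 to 1.75. The labels call the samples independent preparations. With 2 and 3 arrays per group their number limits the precision. The members and the 31 lists were chosen with earlier results of these data known. Named genes were Klf4, the 12 largest called interactions in each direction with a group mean of at least 100, 6 genes each of smallest p among opposite and mainly embryonic patterns, and up to 4 of smallest p per list; other members of the lists are named after their values were seen. Within-stage genotype differences of at least 0.3 defined the patterns. Alternatives changed one choice at a time.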

Additional observations from a re-analysis of the deposited data

Results flagged for a closer look

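The genotype difference changed between the stages in 620 genes, by the test of the interaction itself.

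In the 6 genes of smallest p with an opposite pattern, the mean of Klf4CN lay on one side of WT at E16.5 and on the other at PN56, by at least 0.3 on the log2 scale each, and limma called the interaction: Rgs13 (4.79), Cdca8 (-1.85), Ces5a (-2.75), Acta2 (-1.31), Pygl (-1.17) and Prpf40b (2.21).

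Outside the genes tested, 39 of 2654 probe sets with no gene name (1.47%) were called for the interaction, 17 of them positive. The B1 repeat control had a mean signal of 26030 in PN56 Klf4CN, from 4987 and 47064, against 2319 in PN56 WT. The 18S ribosomal RNA control of the 5' end had a mean of 8353 in PN56 Klf4CN against 1699 in PN56 WT, and of 21780 in E16.5 Klf4CN against 1869 in E16.5 WT.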

How the results depend on the processing

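The count of 620 called genes was 273 (without E16.5 Klf4CN replicate 3) to 939 (without PN56 Klf4CN replicate 1) with 1 array left out; where 1 array of a PN56 group remained, it was assumed to vary like the other groups. It was 291 with a gene's probe sets averaged, 200 without an intensity trend, 320 with array weights, 143 with the pigment and retinal marker mean as covariate, 107 at an adjusted p under 0.01, 1183 under 0.10 and 338 with a size of at least 1 required. With other scalings, offsets, filters, robust eBayes, every probe set by itself and the 18S control as covariate (chosen after seeing the data), it stayed within 1.5 times of 620. The replicate number as a block gave 950 calls, of which 593 were among the 620. Same-numbered WT and Klf4CN arrays deviated from their group means with correlations of 0.271, 0.240 and 0.0524 at E16.5 and 0.0409 at PN56. At E16.5, WT 1 and 2 correlated best with their own number and WT 3 did not (0.0621 with Klf4CN 2). With 2 PN56 arrays per genotype the PN56 correlations are of one size by construction, so they cannot show or exclude pairing. Whether same-numbered arrays belong together was not settled. Of 84 named genes called, 79 kept their direction in every alternative and 15 also their call. Direction turned with the second probe set for Arhgap30 (0.21), Cep68 (0.26), Map1lc3b (-0.46), Mcm2 (0.022), E2f1 (-0.25), Tgfbr1 (0.36), Il17rd (0.24), Spred1 (-0.20), Fosl2 (1.13), Ctnnd1 (-0.12), Dsc2 (0.052), Rps6 (0.89), Crx (0.50), Col5a1 (-0.11) and Slc4a1 (-0.66). It turned with the mean of probe sets for Fosl2 (0.18), Egr3 (0.61), Rps6 (0.19) and Slc4a1 (-0.30), with the marker covariate for Crx (0.46), without PN56 Klf4CN replicate 1 for Rcvrn (-0.062) and Gnat1 (-0.29; at most 1.71 with another array left out), and without PN56 Klf4CN replicate 2 for Alas2 (-0.38; at most 2.08). The cause was not tested. Signals below the offset of 16 in a group, in 26 of the 620 genes, make the size depend on the offset.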

Other observations

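Among the genes of smallest p were several that the rule for named genes did not take; they were chosen after their values were seen. Cdk2ap2, which encodes a partner of the kinase CDK2, had signals of 643, 594 and 609 on the E16.5 WT arrays, 531, 716 and 571 on the E16.5 Klf4CN arrays, 856 and 889 on the PN56 WT arrays and 4756 and 5099.6 on the PN56 Klf4CN arrays. The PN56 Klf4CN arrays were the highest of the 10, the other 8 overlapping between genotypes at E16.5, and the interaction was 2.51 ± 0.20 (SE; limma adjusted p = 1.124e-04). Eva1a, linked to autophagy and cell death, went the other way at -2.63 ± 0.22 (SE; limma adjusted p = 1.652e-04), from 1237 and 1242 on the PN56 WT and 215 and 234 on the PN56 Klf4CN arrays, with 399.8 to 561 over the E16.5 arrays. Gprc5b, an orphan receptor gene, had 20192 and 20694 on the PN56 WT and 5392 and 4709 on the PN56 Klf4CN arrays and an interaction of -1.77 ± 0.16 (SE; limma adjusted p = 2.307e-04); a second probe set gave 0.08.

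A further 4 such genes were positive. Pfn1, encoding the actin monomer binder profilin, was at 1.69 ± 0.17 (SE; limma adjusted p = 4.455e-04), from 2776 and 3799 on the PN56 WT and 8676 and 9778 on the PN56 Klf4CN arrays. Eno3, the muscle-type enolase gene, was at 1.69 ± 0.17 (SE; limma adjusted p = 3.548e-04), with 3195 to 4490 at E16.5 and 4114 and 3352 on the PN56 WT and 9524 and 10518 on the PN56 Klf4CN arrays. Blvrb, a biliverdin reductase gene, was at 3.07 ± 0.34 (SE; limma adjusted p = 7.110e-04), from 17 and 13.4 on the PN56 WT and 274 and 203 on the PN56 Klf4CN arrays, the WT values lying near the offset of 16. S100a4, a calcium-binding protein gene, read 2137 to 2477 at E16.5 and 17313 and 21705 on the PN56 WT and 47862 and 55233 on the PN56 Klf4CN arrays, and its interaction was 1.39 ± 0.16 (SE; limma adjusted p = 8.945e-04). Each of these 7 was called in all 23 alternative fits.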
